A study of Mus musculus with 4 samples.

Results

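Foxo1 binding in mouse regulatory T cells was examined in the megabase windows where antibody peaks were packed most closely. Chromosomes 1 to 19 were divided into fixed windows of 1 Mb, starting at position 0 of the mouse build mm9, and the members were chosen by the number of antibody peak centres in a window. A window with at least 20 such centres is called dense here. There were 123 dense windows among 2419, and they held 3110 of the 16473 antibody peaks. The count of antibody peaks per window therefore chose the members and is given only as a description. The peaks on X (182) and Y (9) were outside the rule.

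Foxo1 is a forkhead transcription factor that acts in the nucleus of resting cells and is exported to the cytoplasm once the kinase Akt phosphorylates it. In T cells it is known for controlling genes of homing and survival, and in regulatory T cells, which restrain other immune cells, for keeping up their suppressive function. Binding sites of such factors are not spread evenly along mammalian chromosomes, and gene-rich stretches tend to carry more of them.

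The series had 4 libraries of nTreg cells, 1 per group, without replicates. Chromatin from wild-type B6 mice was precipitated with an antibody against the endogenous Foxo1 protein, and chromatin from Foxo1tagBirA mice, whose own Foxo1 is biotinylated, was captured with streptavidin. Each route had 1 input library, taken before precipitation. The animals' age, the number of mice behind a library and the way the ligase BirA is expressed are not given in the sources used here. Since no group was replicated, no spread between animals or libraries could be measured and no test was made. The 95% exact (Clopper-Pearson) intervals below cover counting error over peaks only, and neighbouring peaks are not independent.

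The lists held 57748 streptavidin peaks and, in a list of positions named for both methods and deposited under the antibody input, 3431 intervals. That list is called the joint list here. Each antibody and streptavidin peak carries a score from the authors' peak caller, used here to rank peaks within a list. Read depth is unknown, since the lists hold no counts. Gene content, base composition and sequence motifs of the windows were not analysed here.

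Dense windows were also richer in streptavidin peaks. They made up 5.08% of the autosomal windows and held 19.1% of the autosomal antibody peaks, 7.84% of the streptavidin peaks and 23.1% of the joint-list intervals. A dense window had a mean of 36.4 ± 6.92 streptavidin centres (SD over 123 windows) against 22.9 ± 10.8 in the 2296 other windows, a ratio of 1.59 (1.54 to 1.64). That count includes streptavidin peaks that overlap an antibody peak, which the choice of windows favours. Without them the means were 29.8 and 21.7, a ratio of 1.37 (1.32 to 1.42). For the joint list the means were 6.36 ± 2.48 and 1.13 ± 1.56, a ratio of 5.60 (5.17 to 6.07). That list is named for both methods, so its ratio follows in part from choosing the windows by antibody count. Of the members 841 met one of its intervals, close to the 821 that overlapped a streptavidin peak. The ratio is thus tied to that overlap too and is not read as a separate result. The antibody counts that define the windows averaged 25.3 and 5.74, a ratio of 4.41. The rule itself brings this ratio about, so the other ratios are not measured against it.

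The lowest streptavidin count in a dense window was 19, the median 36 and the highest 52. In the other windows the lowest was 0, the median 23 and the highest 53. The range of the dense windows lay inside that of the others, so a high streptavidin count by itself did not mark a dense window. Of the dense windows 117, or 95.1%, had at least 24 streptavidin centres, against 51.4% of all autosomal windows. At least 38 centres were found in 50 dense windows, or 40.7%, against 10.0% of all windows. At least 41 centres were found in 34, or 27.6%, against 5.42% of all windows. Those 34 windows were 26.0% of the 131 windows at that level, while dense windows were 5.08% of all autosomal windows. Still, most of the windows richest in streptavidin peaks were not dense in antibody peaks.

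**Figure D1:**
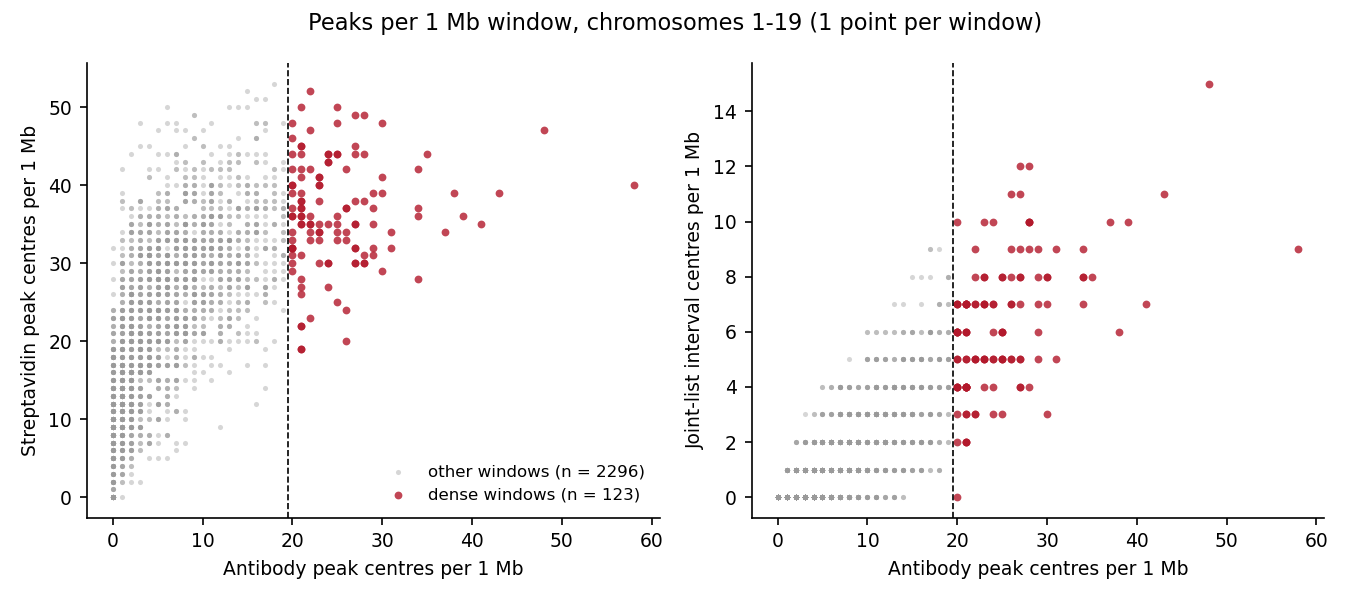
Each point is a 1 Mb window of chromosomes 1 to 19; the x axis gives its antibody peak centres, and the y axes give its streptavidin centres (left) and joint-list interval centres (right). The 123 dense windows (red, right of the dashed line) span 19 to 52 streptavidin centres, inside the 0 to 53 of the 2296 other windows (grey), and 0 to 15 joint-list intervals against 0 to 9.

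The streptavidin count differed less between the upper classes of antibody count than between the lower ones. Windows with no antibody centre had a mean of 9.87 streptavidin centres, windows with 1 to 4 had 18.9, and windows with 5 to 9 had 27.2. The mean was 31.3 at 10 to 14 antibody centres and 33.8 at 15 to 19. Within the dense windows it was 36.1 at 20 to 24, 36.3 at 25 to 29 and 37.8 at 30 or more (SD over windows 7.14, 7.19 and 5.50). Streptavidin peaks that overlapped no antibody peak stood at 28.6 to 30.5 per window in every class from 10 to 14 upwards. The joint list had means of 2.61, 3.87, 5.40, 7.22 and 8.22 intervals from the class of 10 to 14 to that of 30 or more. The joint list is named for both methods, and windows with no antibody centre had a mean of 0.0 of its intervals. Its count is therefore tied to the antibody count that sorted the windows.

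The ratio of antibody to streptavidin centres contains the antibody count that chose the windows, so its order over the classes is fixed in part by the rule. It was 0.252 in windows with 5 to 9 antibody centres, 0.597 at 20 to 24 and 0.966 at 30 or more. Antibody centres outnumbered streptavidin centres in 12 dense windows, or 9.76%, and in 8 of the other windows, or 0.348%. Over single dense windows the ratio ran from 0.417 to 1.45, with a median of 0.676.

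**Figure D2:**
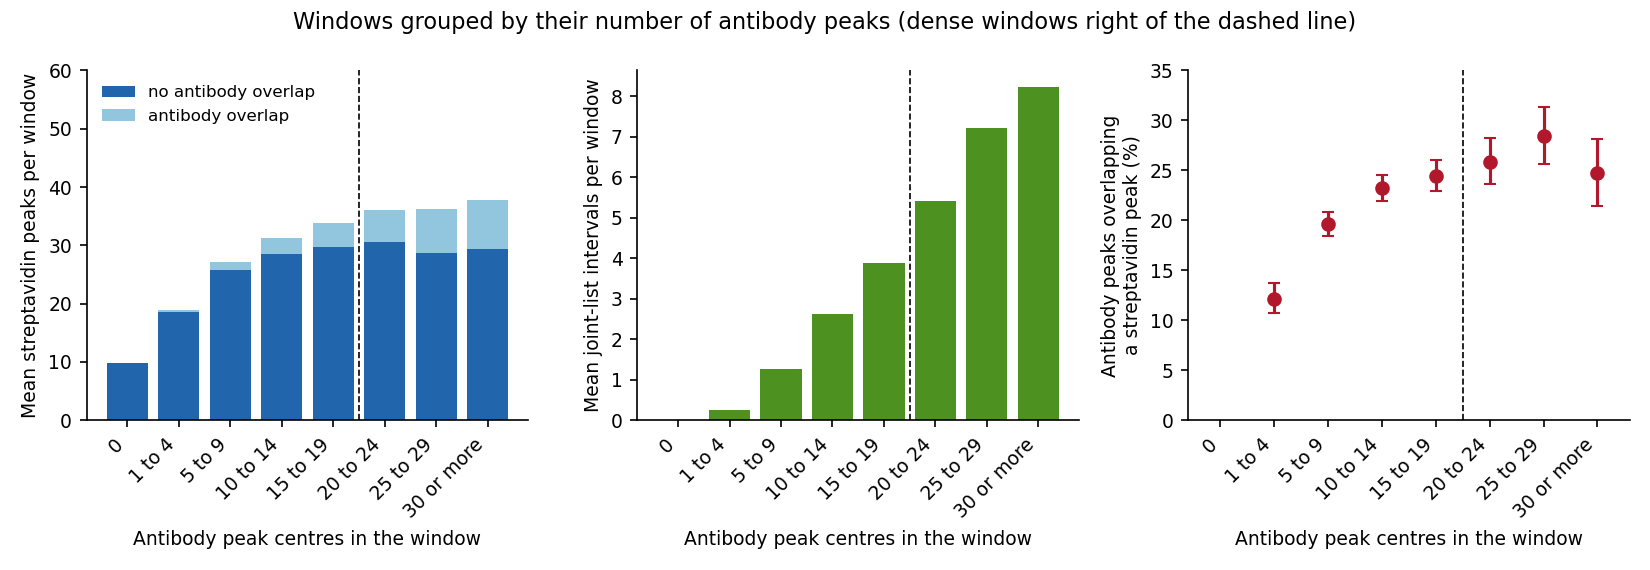
Windows are grouped on the x axes by their antibody peak centres; the bars give the mean streptavidin peaks per window (left, split by overlap with an antibody peak) and the mean joint-list intervals (middle), and the points give the percent of antibody peaks that overlap a streptavidin peak with 95% exact intervals (right). Streptavidin means change from 33.8 to 37.8 between the class of 15 to 19 and that of 30 or more, while joint-list means change from 3.87 to 8.22.

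Members overlapped streptavidin peaks somewhat more often than other antibody peaks. An antibody peak is called shared when it overlaps a streptavidin peak by at least 1 base. Of the 3110 members 821, or 26.4% (24.9 to 28.0), were shared, against 2733 of the 13172 other autosomal antibody peaks, or 20.7% (20.1 to 21.5), and 21.8% of all autosomal antibody peaks. The intervals do not overlap. A joint-list interval was met by 841 members, or 27.0% (25.5 to 28.6), against 21.3% (20.6 to 22.0) of the others and 22.4% of all. As the joint list is named for both methods, this is not independent of the overlap with streptavidin peaks. The share was higher in members on 15 of the 17 chromosomes with dense windows. The exceptions were chromosome 3, with 20% of members and 20.1% of other peaks, and chromosome 19, with 26.0% and 26.4%.

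The share rose with the antibody count in the lower classes, without a clear further rise in the dense ones. It was 12.1% (10.7 to 13.7) in windows with 1 to 4 antibody centres, 19.6% at 5 to 9, 23.2% at 10 to 14 and 24.4% (22.9 to 26.0) at 15 to 19. In the dense classes it was 25.8% (23.6 to 28.2), 28.4% (25.6 to 31.3) and 24.7% (21.4 to 28.1), with intervals that overlap each other and that of the class below. Windows just under the limit differed little from those just over it. The 28 windows with 18 centres had 24.6% shared peaks and a median of 35 streptavidin centres, and the 22 windows with 19 had 27.5% and 34.5. The 18 windows with 20 centres had 26.4% and 36, and the 23 windows with 21 had 23.0% and 36.

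At equal streptavidin counts the difference was smaller. In windows with 32 to 41 streptavidin centres, the middle range of the dense windows, 25.6% (23.5 to 27.7) of the peaks in 66 dense windows were shared, against 22.8% (21.5 to 24) in 457 other windows. These intervals overlap. The dense windows of this subset had a mean of 36.1 streptavidin and 25.8 antibody centres, and the other windows 35.4 and 9.81.

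Seen from the streptavidin list, 813 of the 4474 peaks in dense windows, or 18.2% (17.1 to 19.3), overlapped an antibody peak, against 5.17% (4.99 to 5.37) in the other windows and 6.19% of all autosomal streptavidin peaks. More antibody peaks per window make such an overlap more frequent by construction, so this difference follows in part from the rule.

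Most members had no streptavidin peak on them, yet many had one in the neighbourhood. A streptavidin centre lay within 1 kb of 34.7% of members (33.0 to 36.4) and of 28.9% of other antibody peaks (28.1 to 29.7). Among the 2289 unshared members, 11.3% (10.0 to 12.6) had a streptavidin centre within 1 kb, against 10.3% (9.67 to 10.8) of the unshared other peaks, a difference within the intervals. Within 10 kb the values were 55.0% (52.9 to 57.1) and 48.0% (47.1 to 49.0). Streptavidin peaks are 1.59 times as frequent in dense windows, or 1.37 times without those that overlap an antibody peak. This enters each of these distances.

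Peak scores were alike in the middle of the range and spread further at the upper end. The median antibody score was 170.0 in members (quartiles 120.0 and 276) and 167 in the others (127 and 239). The 90th percentile was 534 in members and 395 in the others. Scores of at least 500 were held by 347 members, or 11.2%, and by 6.89% of the others, and scores of at least 1000 by 96 members, or 3.09%, and 2.25%. Among these strong peaks members were not shared more often than others. At scores of at least 500, 64.3% (59 to 69.3) of members and 70.6% (67.5 to 73.5) of the others were shared, and at scores of at least 1000, 79.2% (69.7 to 86.8) and 81.4% (76.5 to 85.7). Members were also slightly wider, with a median of 247 bases (quartiles 195 and 322) against 230.0 (184 and 280.0). Widths of 500 bases or more were found in 5.31% of members and 3.36% of the others.

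Because strong peaks are shared more often, members and others were compared within quintiles of the antibody score. In the lowest quintile 14.1% (11.7 to 16.9) of members and 13.0% (11.7 to 14.4) of the others were shared. The values were 13.8% (11 to 17.0) and 12.0% (10.8 to 13.4) in the next quintile. In the middle quintile, with scores from 149 to 189, they were 23.0% (19.4 to 26.9) and 12.1% (10.9 to 13.4), the one class whose intervals are clearly apart. The next had 23.8% (20.4 to 27.5) and 19.5% (18 to 21), and the highest 51.2% (47.6 to 54.9) and 48.9% (46.9 to 50.9). The share was higher in members in all 5 quintiles, but with overlapping intervals in 4 of them. The highest quintile spans scores from 279 to 3226, and its part from 500 upwards had the opposite order, with 64.3% against 70.6%.

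**Figure D3:**
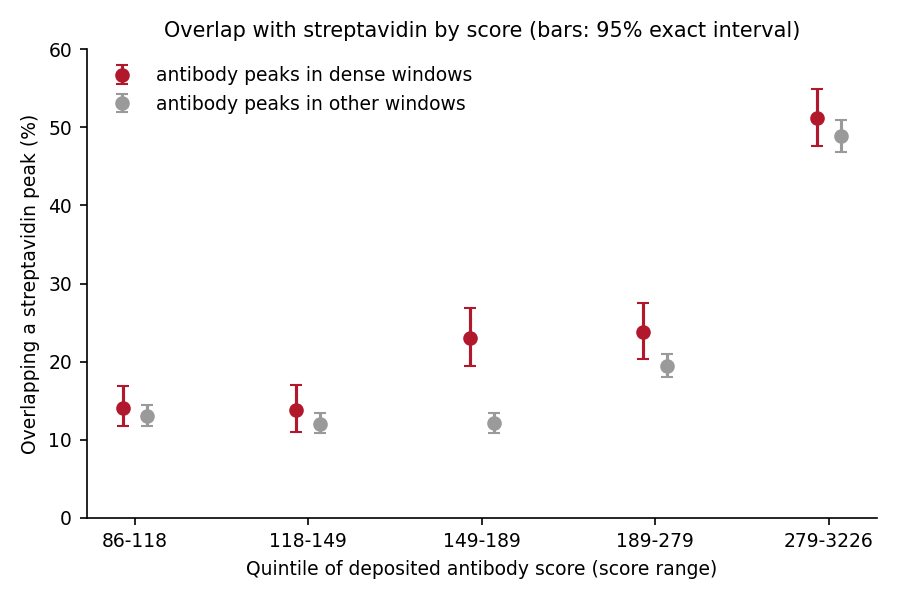
The x axis gives quintiles of the deposited antibody score, cut over all autosomal antibody peaks, and the y axis the percent that overlap a streptavidin peak, for members (red) and other antibody peaks (grey) with 95% exact intervals. The pairs lie close together except at scores of 149 to 189, where members are at 23.0% and others at 12.1%.

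Many antibody peaks carry exactly the same score, and members did so less often. Scores held by 10 or more autosomal antibody peaks belonged to 18.2% of members and 24.2% of the others. The most frequent values, 112.08 and 131.91, were each held by 320 peaks, of which 25 and 27 were members, or 7.81% and 8.44%, against the 19.1% of all autosomal antibody peaks that were members. Of the 320 peaks at 112.08 only 15, or 4.69%, were shared, and of those at 131.91 19, or 5.94%. Among peaks with other scores 27.8% (26.0 to 29.5) of members and 23.1% (22.3 to 24) of the others were shared, and in the middle quintile 21.4% (17.5 to 25.9) and 12.1% (10.7 to 13.5). The part of tied scores in the difference between members and others was not tested further.

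Streptavidin peaks of the dense windows resembled those elsewhere. Their median score was 73.3 against 74.7, and their median width 225 against 220.0 bases. The 99th percentile of the score was 352 in dense windows and 207 in the others, and the widths at the 90th percentile were 323 and 275 bases. Shared streptavidin peaks had a median score of 97.0 in dense and 98.1 in other windows.

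The dense windows were spread over 17 of the 19 autosomes and were absent from chromosomes 14 and 18, whose fullest windows held 17 and 19 antibody centres. Chromosome 11 had the most, 15 of its 119 windows or 12.6%, followed by chromosome 7 with 14 (9.33%), chromosome 5 with 12 (8%) and chromosome 8 with 11 (8.53%). Chromosomes 9 and 15 had 10 each. As a share of windows, chromosomes 15 (9.90%) and 17 (9.68%) came next to chromosome 11. Chromosomes 1, 3 and 13, with 195, 157 and 118 windows, had only 2, 2 and 1. On chromosome 15 the dense windows held 34.3% of the antibody peaks of the chromosome, on chromosome 8 33.9%, and on chromosome 13 3.45%. Within each of the 17 chromosomes the dense windows had more streptavidin centres than the other windows, by 1.32 times on chromosome 3 to 2.22 times on chromosome 16, which had 2 dense windows. On the 11 chromosomes with 5 or more dense windows the ratio was 1.33 to 1.71.

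Dense windows often adjoined each other. Of the 123 windows 61 formed 25 runs of 2 or more, and 62 stood alone. The longest run had 5 windows, on chromosome 5 from 121000001 to 126000000, with 116 antibody peaks, 166 streptavidin peaks and 27 joint-list intervals. Runs of 4 windows lay on chromosome 4, 132000001 to 136000000 (100 antibody peaks, 31.0% shared), on chromosome 15, 78000001 to 82000000 (99 antibody peaks, 24.2% shared), and on the same chromosome at 97000001 to 101000000 (97 antibody peaks, 26.8% shared). Runs of 3 were found on chromosome 7, 133000001 to 136000000, with 74 antibody peaks, and on chromosome 8, 72000001 to 75000000, with 101. The run with the highest density was a pair on chromosome 10, 79000001 to 81000000, with 53.0 antibody peaks per Mb and 43.5 streptavidin peaks per Mb.

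The other pairs are given by chromosome. On chromosomes 3, 4 and 5 they began at 88000001, 154000001 and 114000001, with 50, 48 and 50 antibody peaks. On chromosome 7 pairs began at 19000001 and 25000001, with 45 and 47. On chromosome 8 they began at 86000001 and 124000001, with 62 and 50, and on chromosome 9 at 44000001, 107000001 and 119000001, with 48, 50 and 41. The second pair of chromosome 10 began at 126000001, with 57. Chromosome 11 had 4 pairs, beginning at 68000001, 86000001, 97000001 and 117000001, with 63, 42, 54 and 43. On chromosome 17 they began at 24000001 and 34000001, with 45 and 62, and on chromosome 19 at 4000001, with 72. The share of shared peaks over all 25 runs ranged from 16.0% in the pair on chromosome 9 at 107000001 to 34.0% in the pair on chromosome 8 at 124000001.

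The surroundings of the dense windows are given as a description, since every window outside them has fewer than 20 antibody centres by the rule. The 157 windows directly next to a dense one, not dense themselves, had a mean of 10.1 ± 5.32 antibody centres (SD over windows), and those 2 Mb away 7.25 ± 5.34. From 3 to 5 Mb the means were 6.73 to 7.04, and beyond 5 Mb 5.05 ± 4.71. Streptavidin centres went from 36.4 in the dense windows to 29.4 ± 10.4 next to them and 26.1 ± 10.6 at 2 Mb, against 21.6 ± 10.4 beyond 5 Mb. The share of antibody peaks that were shared was 21.3% (19.3 to 23.4) in the adjoining windows and 20.6% (19.7 to 21.4) beyond 5 Mb, both below the 26.4% of the dense windows.

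**Figure D4:**
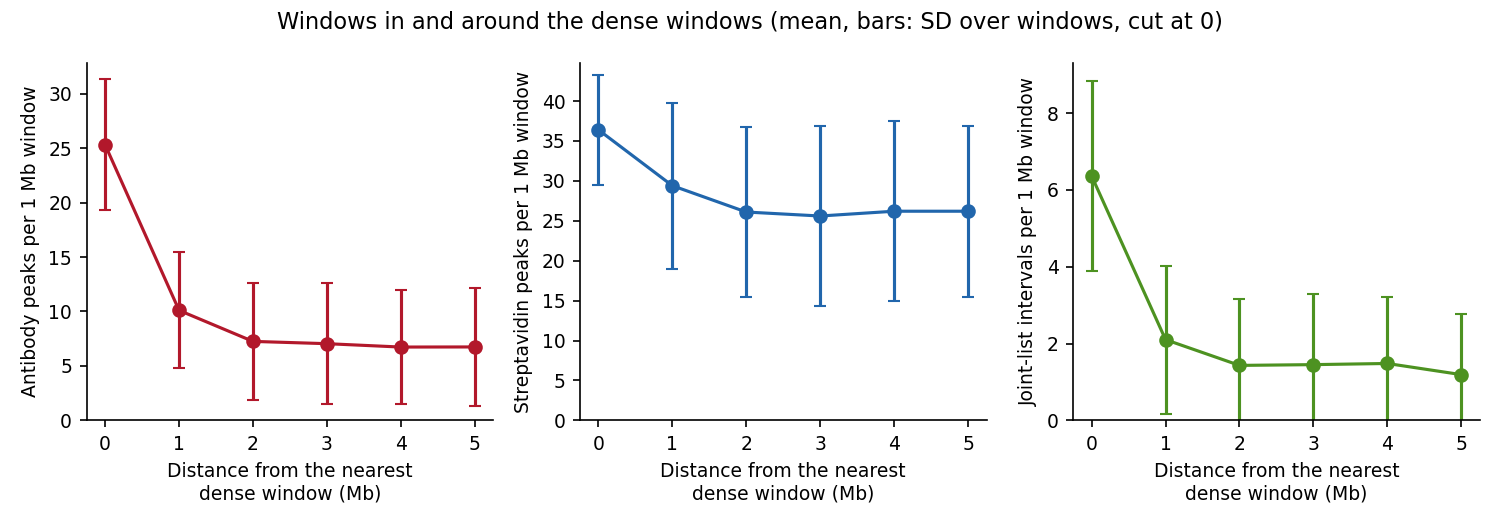
The x axes give the distance in Mb from the nearest dense window (0 stands for the dense windows) and the y axes the antibody peaks, streptavidin peaks and joint-list intervals per 1 Mb window, as means with the SD over windows, cut at 0. Streptavidin means go from 36.4 to 29.4 and 26.1; the antibody means of 25.3 and 10.1 are set apart by the rule.

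Inside a window the members were spread over most of its length. Of the 10 bins of 100 kb in a window a median of 9 held an antibody centre (range 4 to 10), and the fullest bin held a median of 24.1% of the members of its window (range 14.3% to 45%). Streptavidin peaks occupied a median of 10 bins (range 6 to 10). At this finer scale the streptavidin count rose with the antibody count of a bin, mostly through streptavidin peaks that overlap an antibody peak. More antibody peaks in a bin make such overlaps more frequent by construction. Bins of dense windows with no antibody centre had a mean of 2.75 streptavidin centres, those with 1 had 3.28, those with 3 to 4 had 3.76, and those with 5 or more had 4.93. Without the streptavidin peaks that overlap an antibody peak, the means stayed between 2.75 and 3.10.

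At equal antibody counts per bin the order of members and other peaks was not the same in all classes. With 5 or more antibody centres in 100 kb, 30.5% (28.0 to 33.1) of the peaks were shared in dense and 30.4% (27.8 to 33.1) in other windows. With 3 to 4 centres the values were 24.7% (22.1 to 27.4) and 27.0% (25.6 to 28.5), with 2 centres 24.2% (20.5 to 28.2) and 20.3% (19.0 to 21.7), and with 1 centre 17.6% (13.2 to 22.7) and 13.8% (12.8 to 14.8). The intervals overlap in each of the 4 classes, while the values for 1 and 2 centres were nearly 4 percentage points higher in members. Bins with 5 or more centres made up 17.0% of the bins of dense windows and 0.932% of those elsewhere.

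Close neighbours were frequent among members. The nearest antibody centre was a median of 8612 bases away (quartiles 1386 and 23730) against 27608 for other peaks (5430 and 74826), a difference that the rule itself brings about. Another antibody centre lay within 1 kb of 21.4% of members and 15.3% of the others. Chains of 3 or more antibody centres, each at most 5 kb from the next, took in 499 members, or 16.0%, and 6.42% of the others. In these chains 32.9% of members and 35.7% of the other peaks were shared, against 25.2% and 19.7% outside them. The longest chain touching a dense window had 7 centres.

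The window with the most antibody peaks was on chromosome 10, 80000001 to 81000000. It held 58 antibody centres, 40 streptavidin centres and 9 joint-list intervals, and 10 of its antibody peaks, or 17.2% (8.59 to 29.4), were shared. The window before it, 79000001 to 80000000, held 48 antibody and 47 streptavidin centres, 15 shared peaks (31.2%, 18.7 to 46.3) and, with 15, the most joint-list intervals of all windows. The next window, on chromosome 19 from 5000001 to 6000000, had 43 antibody and 39 streptavidin centres, with 12 shared peaks. Antibody centres outnumbered streptavidin centres in all of these 3 windows, in the second by 48 to 47, against a median of 5 and 24 in all autosomal windows. As the windows were picked for their antibody count, this order follows in part from that choice.

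The next windows were on chromosome 2, 30000001 to 31000000 (41 antibody, 35 streptavidin, 8 shared), and chromosome 8, 74000001 to 75000000 (39, 36 and 12). Chromosome 11, 69000001 to 70000000, had 38 antibody centres with 8 shared peaks, and chromosome 8, 73000001 to 74000000, had 37 with 12 shared. Chromosome 17, 34000001 to 35000000, had 35 antibody and 44 streptavidin centres. Another 4 windows tied at 34 antibody centres. They were chromosome 2, 32000001 to 33000000, and chromosome 8, 86000001 to 87000000, with 10 and 9 shared peaks, and chromosome 15, 76000001 to 77000000, and chromosome 7, 52000001 to 53000000, with 8 and 7. Median scores in the windows with 34 or more antibody centres ran from 152 to 206, inside the range of 123 to 258 over all dense windows.

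**Figure D5:**
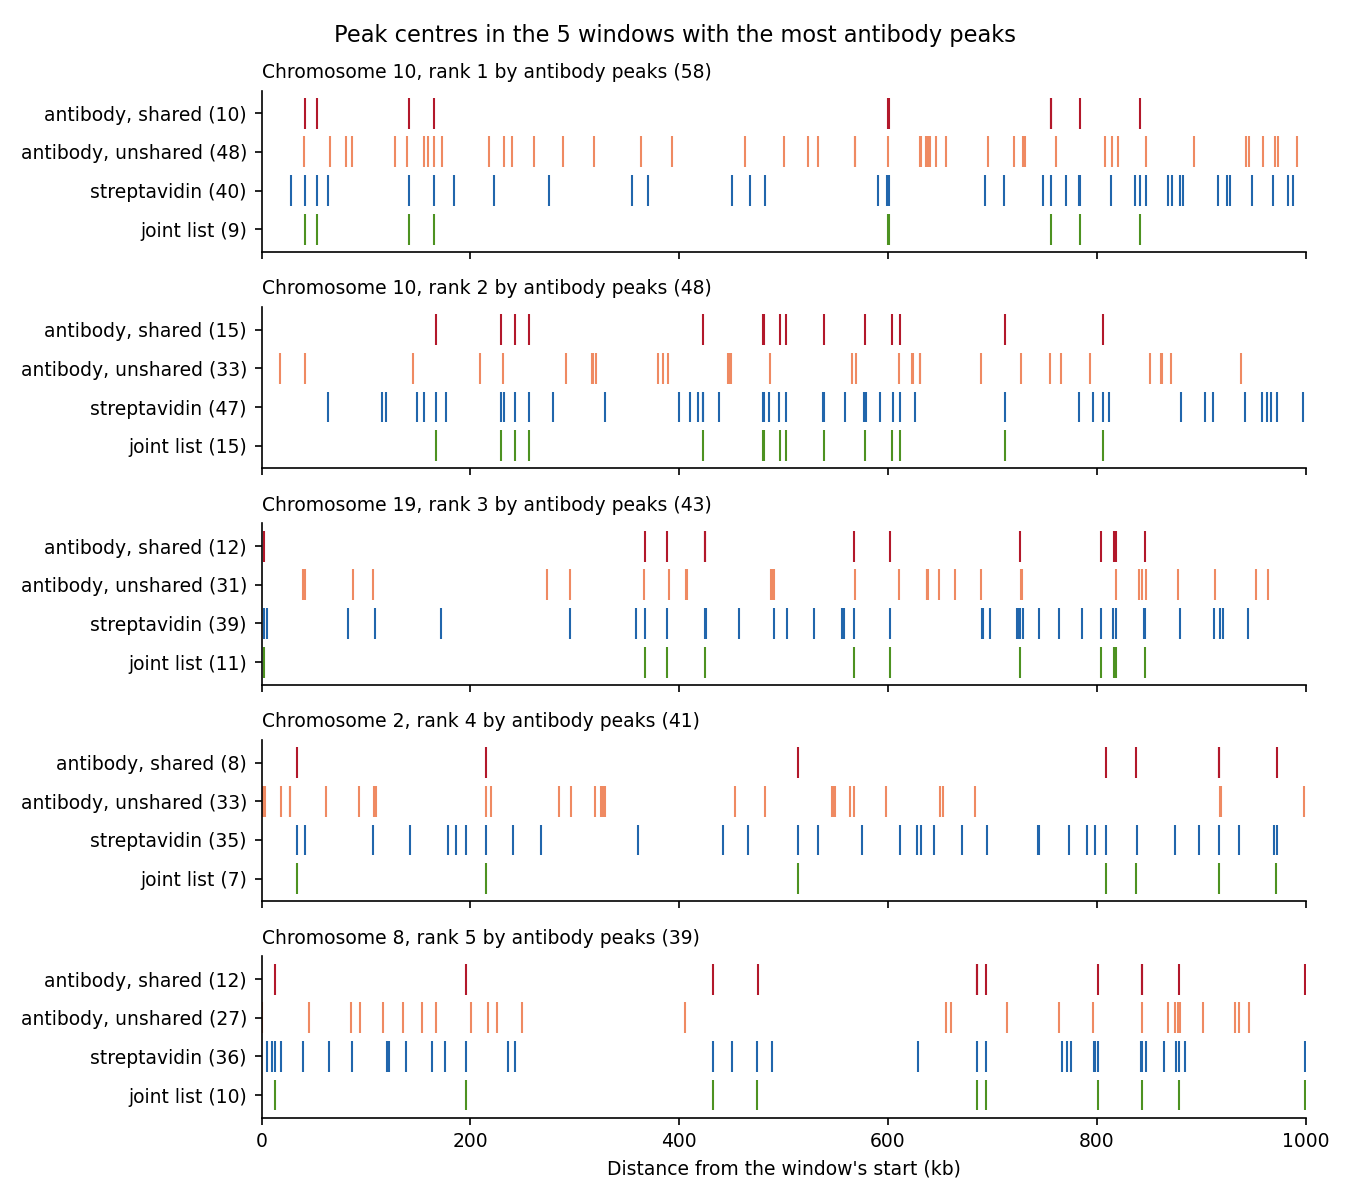
Each panel is one of the 5 windows with the most antibody peaks, the x axis is the distance in kb from the start of the window, and each line is a peak centre, in rows for shared antibody peaks, unshared antibody peaks, streptavidin peaks and joint-list intervals with their number in brackets. In the first panel 10 of 58 antibody peaks are shared, and in the second 15 of 48.

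The strongest members were mostly shared, as were the strongest peaks elsewhere. At scores of at least 3100, 84.6% of 13 members and 85.2% of 27 other antibody peaks were shared. The highest-scoring member of all lay on chromosome 4 at 154937462 to 154938222, with an antibody score of 3226. It overlapped a streptavidin peak of score 87.8, low beside the 685 of the next member, on chromosome 1 at 182125976 to 182126345 with an antibody score of 3141. A further 11 members had the score 3100 exactly, and 9 of them were shared. The value 3100 is not the highest number in the list, as 2 members carried more, but whether it ranks below them is unknown. What this repeated value stands for is not given, so the order among the strongest members is uncertain. Among these were chromosome 1, 36568489 to 36568914 (streptavidin score 619), chromosome 8, 13686421 to 13686971 (311), and chromosome 8, 87502198 to 87502968 (1378). In the fullest window of chromosome 10 the strongest shared member was at 80140805 to 80141277, with 3100 and a streptavidin score of 759, and in the window before it at 79577968 to 79578701, with 3100 and 460.

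In the other 3 of the 5 fullest windows the strongest shared members scored less. On chromosome 19 it lay at 5388611 to 5388909 (antibody 921, streptavidin 134), on chromosome 2 at 30514000 to 30514295 (1193 and 124), and on chromosome 8 at 74998962 to 74999355 (1762 and 103). In that window of chromosome 8 the centres of both methods were 7.5 bases apart.

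Strong members without a streptavidin peak were also present. On chromosome 8 the peak at 72758291 to 72758631 and on chromosome 10 the peak at 80655099 to 80655688 had the score 3100 and no streptavidin centre within 22349 and 37256 bases. They were followed by chromosome 8, 72877128 to 72877552 (2668), chromosome 17, 56723707 to 56724498 (2220), and chromosome 19, 5963985 to 5964438 (1835). Streptavidin centres were 1957, 1908 and 19772 bases from them. In the remaining fullest windows the strongest unshared members were chromosome 10, 79144344 to 79144973 (1123), chromosome 2, 30547668 to 30548034 (384), and chromosome 8, 74945314 to 74945737 (709).

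Few single dense windows had a share whose interval missed that of all members. The share ran from 0% to 51.9% with a median of 26.7%, and in 120 of the 123 windows the interval included the 26.4% of all members. The intervals of 2 windows lay above it and that of 1 below. With 95% intervals some of 123 windows miss by counting error, so these 3 are described without being set apart. Those above were chromosome 17, 29000001 to 30000000, where 14 of 27 antibody peaks, or 51.9% (31.9 to 71.3), were shared, and chromosome 16, 4000001 to 5000000, with 10 of 20 or 50% (27.2 to 72.8). Both also had high median scores, at 258 and 225. The next highest share, 43.5%, was on chromosome 8 at 124000001 to 125000000.

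The window with an interval below was on chromosome 2, 27000001 to 28000000. None of its 20 antibody peaks was shared, for which the exact interval ends at 16.8% and a floor of 3 counts at 15.0%. It held 36 streptavidin centres and no joint-list interval. Its median score of 132 was near the low end of the dense windows. Another window of chromosome 2, 179000001 to 180000000, had 2 of 21 shared with a median score of 132 as well, and chromosome 3, 88000001 to 89000000, also had 2 of 21, with a median score of 176. All dense windows but the one on chromosome 2 at 27000001 had at least 1 shared peak, and 96, or 78.0%, had at least 5.

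Dense windows with similar antibody counts could differ widely in their streptavidin count. The most streptavidin centres were on chromosome 11, 117000001 to 118000000, with 52 beside 22 antibody centres. Chromosome 1, 36000001 to 37000000, and chromosome 19, 10000001 to 11000000, had 50 each beside 21 and 25. The fewest were on chromosome 4, 155000001 to 156000000, and chromosome 11, 86000001 to 87000000, with 19 each beside 21 antibody centres, and on chromosome 15, 81000001 to 82000000, with 20 beside 26. Those sparse windows had 3, 4 and 8 shared peaks, and the rich ones 7, 6 and 6.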

How the data were processed

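The submitters' processing notes list the base caller CASAVA 1.4, the aligner Bowtie 0.12.7, the peak caller MACS 1.4 and the build mm9; the settings, the control library and any pooling are not given in the sources used here. The authors deposited 3 interval lists, of which the antibody and streptavidin lists carry a score per peak and state a false discovery rate of 0.01 in their names. No header defines the score, and it was not compared between lists as a level. Per the file headers and labels nothing says how the joint list was made.

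Starts were counted from 1. A peak was placed in the window of its centre, and windows before the first peak of a chromosome (62 in all) were left out. Overlaps were counted with Python 3.11.15, NumPy 2.4.6, SciPy 1.17.1 and pandas 2.3.3, equalled those of bedtools 2.31.1, and the counting was tested on simulated data. The members, and the rules for the windows and peaks named, were chosen with earlier results of these data known: the 10 fullest windows (with those tied at the last place), the extremes in streptavidin count and share, all runs, and the strongest shared and unshared members. The bins, chains, tied scores and distances were added after seeing the data. Alternatives covered the window grid, the limit of 20 centres, joined neighbours, score and the definition of overlap. Read depth is unknown, and input libraries were not analysed here.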

Additional observations from a re-analysis of the deposited data

How the results depend on the processing

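In all 9 alternatives that redefine windows, peaks or overlap, the share of shared peaks was higher in members than in the other antibody peaks, and no ratio changed direction. Of 45 recomputed values 21 stayed within the interval of the reported value, or for counts within 1.5 times. With windows of 500 kb and at least 10 centres there were 385 dense windows with 5017 members, 19.6% of other peaks were shared and the joint-list ratio was 7.04. A limit of 15 centres gave 308 windows, 6177 members and 19.6% of other peaks shared, and a limit of 25 gave 55 windows and 1647 members. With neighbours within 1 kb joined there were 80 windows and 1941 members, and 28.4% of members and 21.5% of others were shared. With only the upper 50% of scores and at least 10 centres, there were 1995 members, shares of 28.9% and 21.8% and a streptavidin ratio of 1.51. An overlap of 50% of the shorter peak gave 24% and 18.6%, and centres within 200 bases 24.6% and 19.1%. With as many streptavidin as antibody peaks the shares were 15.2% and 12.5%, where fewer streptavidin peaks were available by construction, and the streptavidin ratio was 1.64. The cause of the other differences was not tested. Keeping the windows before the first peak, chosen after seeing the data, gave ratios of 1.63 and 5.75. Leaving out a replicate was not possible, as no group was replicated.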
